A study of Callithrix jacchus and Rattus norvegicus and Loxodonta africana with 31 samples.

Results

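The serpins are a family of proteins that share 1 fold, most of which inhibit serine proteases. Members were taken by name from the expression tables of the marmoset, the rat and a wallaby, as every entry whose symbol is SERPIN followed by a clade letter from A to I and a number. This gave 76 of 54059 entries: 18 of 19681 in the marmoset, 40 of 20486 in the rat and 18 of 13892 in the wallaby. Serpina10 stood in the rat table as a pair of entries with identical values and was counted once, which left 39 distinct rat serpins.

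An inhibitory serpin offers its reactive loop to a protease as bait. When the protease cuts the loop, the serpin folds the loop into its body and holds the enzyme in a covalent complex, so that each molecule works once. Many clade A, C, D, F and G members are made by hepatocytes and secreted into blood, where they restrain clotting, fibrinolysis, complement and leukocyte proteases, and a few have become hormone carriers. Clade B members mostly stay inside cells, SERPINH1 is a chaperone of collagen in the endoplasmic reticulum, and SERPINI1 is released by neurons.

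The series sequenced polyadenylated RNA for a study of Y-linked genes across mammals, with 14 marmoset, 12 rat, 2 wallaby and 3 elephant samples, of which the elephant samples were not used here. In the marmoset and the rat, heart, kidney and liver came from 1 female and 1 male each, ovary from 1 female, and rat testis from 1 male. The wallaby gave liver and testis of 1 male. All samples are labelled by tissue, sex and individual, and no treatment, genetic change, strain or age is labelled. The 3 marmoset testis samples, from 2 individuals, share 1 column, which is printed as the authors' value. For brain, each sex has a frontal cortex and a cerebellum sample and the table has 1 column, so that the region cannot be told.

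Levels are given in FPKM, a fragment count divided by transcript length and library size, which the authors then normalized across tissues. The sequencing depth behind them is unknown. The hepatocyte list summed to between 28864 and 51692 FPKM in the 4 marmoset and rat livers. The brain columns held cerebellar granule and cortical neuron markers together in both species, and in the rat GABRA6, a cerebellar granule gene, stood at 26.4 FPKM in the female and 213 FPKM in the male. Not every marker followed its label: CYP19A1, a granulosa cell gene, stood at 52.8 and 25.7 FPKM in female and male marmoset liver and 7.20 in ovary, and rat Alb at 97.5 FPKM in male heart. A value of 0 need not mean absence of RNA, since albumin (ALB) had a listed level of 0 in all 4 livers. With 2 libraries per tissue, 1 of each sex, p-values rest on the spread between libraries of 2 animals, pooled over the tissues. The main comparison held no term for the animal, and an alternative with such a term is given at the end.

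The family's summed level was highest in liver in each species. The rat serpins summed to 25419 FPKM in female and 49443 FPKM in male liver, 1.65% and 1.84% of all FPKM in those columns, and to between 119 and 557 FPKM in each of the other 8 columns. In the marmoset the sums were 4102 and 8078 FPKM in female and male liver, and between 80.1 and 791 FPKM elsewhere. As shares of a column these were 0.431% and 0.479% in liver, against 0.306% in ovary, 0.191% in testis and at most 0.0733% in the other tissues. The wallaby serpins summed to 30617 FPKM in liver, 1.74% of the column, and to 129 FPKM in testis. The marmoset sums leave out serpins that the table lists by identifier alone, described at the end.

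Not all members were detected at a usable level. In the marmoset, 11 of 18 reached 10 FPKM in at least 1 column, SERPINB9 reached at most 7.97 FPKM, and 6 stayed at or below 0.397 FPKM everywhere. In the rat, 22 of 39 reached 10 FPKM, 4 peaked between 1 and 10 FPKM, and 13 stayed at or below 0.711 FPKM. In the wallaby the counts were 12, 1 and 5 of 18. Clade B, the largest in the rat with 15 members, had 4 at 10 FPKM or more, against 10 of 13 in clade A.

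**Figure D1:**
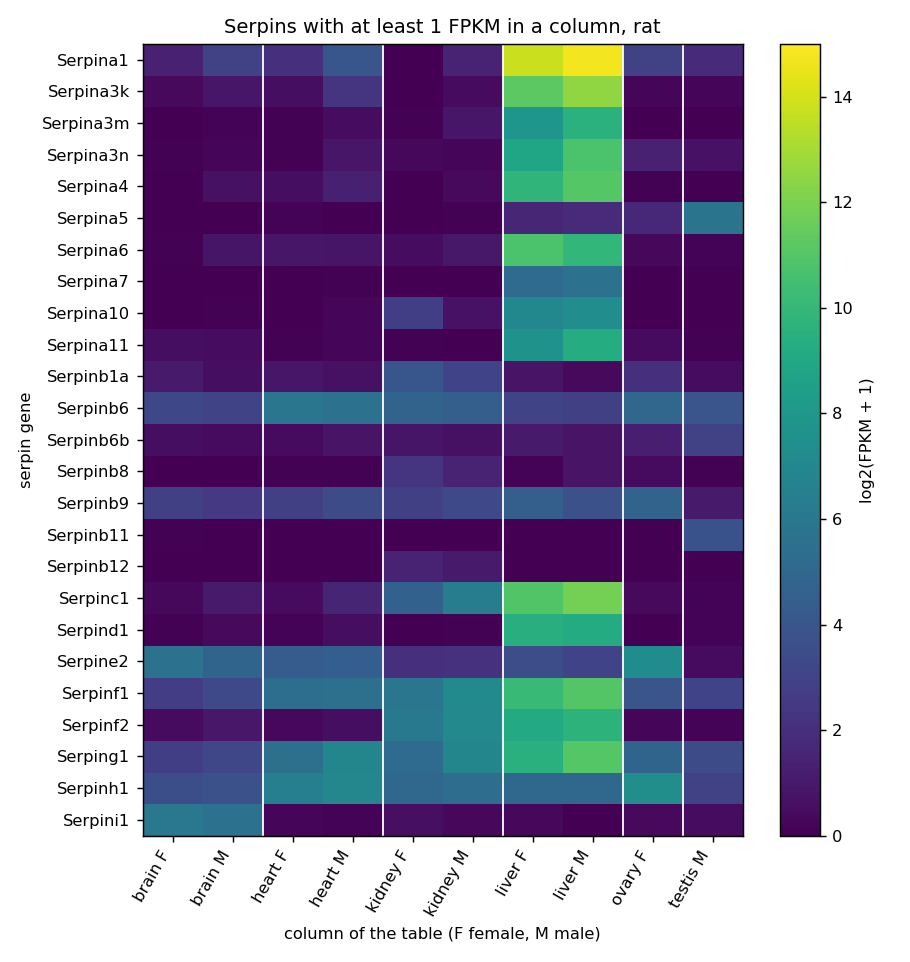
Rat serpins that reached at least 1 FPKM in a column, except 1 that is not reported, 1 row per gene and 1 column per tissue and sex (F female, M male); colour is log2(FPKM + 1) on a scale from 0 to 15. Most clade A, C, D, F and G rows are bright in the liver columns only, while Serpini1 stands out in brain, Serpinb11 and Serpina5 in testis, and Serpine2 and Serpinh1 in ovary.

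**Figure D2:**
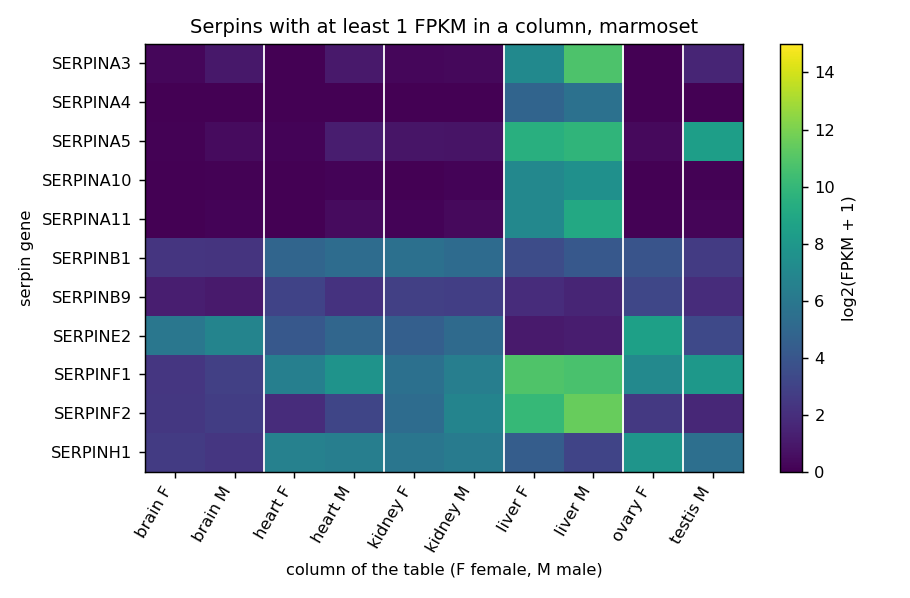
Marmoset serpins that reached at least 1 FPKM in a column, drawn as for the rat with the same exception. The 7 rows that are brightest in liver belong to clades A and F, and SERPINA5 is bright in testis as well.

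Tissues were compared with limma on log2(FPKM + 1), each somatic tissue against the mean of the other 3, over every gene that reached 1 FPKM in 2 or more of the 8 libraries. Calls needed a log2 difference of 1 or more and an adjusted p (Benjamini-Hochberg) below 0.05. In marmoset liver 7 serpins of 12 tested were higher and 2 lower, where 14.7% of the 15100 genes tested were higher and 14.3% lower. In rat liver 16 of 23 tested were higher and 3 lower, against 18% and 18.6% of 14560 genes. The median difference was 5.40 over the tested marmoset serpins and 0.06 over all genes, and 5.59 and -0.06 in the rat. The lower members were SERPINE2 and SERPINH1 in the marmoset and Serpini1, Serpinb1a and Serpinb6 in the rat. Among the somatic libraries Serpini1 reached 1 FPKM in brain alone, and Serpinb1a in both kidneys and female brain. Both entered the test through tissues other than liver, so their lower calls in liver support nothing further. SERPINH1, at -1.26 ± 0.38 (limma adjusted p = 0.0435), did not pass without the male liver library or without any single library of heart, kidney or brain.

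All 7 marmoset and 16 rat serpins that were higher had both liver libraries above the 6 libraries of kidney, heart and brain. How many of all genes higher in liver did the same was not counted, so nothing particular to serpins is read from it. The counts of higher calls lean on the filter. Without either marmoset liver library SERPINA4, SERPINA10 and SERPINA11 were no longer tested and 4 calls remained. In the rat 7 of the 16 left the test in the same way, leaving 9 calls without the male liver library and 8 without the female one, where Serpinb9 was lost as well. Some that stayed also passed the filter only through liver. Among the other somatic libraries SERPINA3 and SERPINA5 in the marmoset and Serpina3k and Serpina4 in the rat reached 1 FPKM in male heart alone. Rat Serpina10 did so in female kidney alone. Members that enter the test through liver alone had to differ, so the counts describe the family and support nothing further.

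SERPINA1, alpha-1-antitrypsin, is the main plasma inhibitor of neutrophil elastase. Rat Serpina1 stood at 14165 FPKM in female and 27664 FPKM in male liver, rank 17 of all 20486 entries by mean liver level. It was at 3.31 and 15.3 FPKM in female and male heart, 1.56 and 6.83 in brain, 0.0359 and 1.81 in kidney, 6.67 in ovary and 2.61 in testis. The difference of liver from the other somatic tissues was 12.27 ± 0.69 on the log2 scale (SE; limma adjusted p = 1.93e-05).

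SERPINA3, alpha-1-antichymotrypsin, inhibits chymotrypsin-like proteases such as cathepsin G. Marmoset SERPINA3 stood at 137 FPKM in female and 1796 FPKM in male liver and at no more than 1.92 FPKM in any other column. The livers lay far apart, and the difference from the other tissues was 8.49 on the log2 scale. Male heart was the only other somatic library in which the gene reached 1 FPKM. It passed the filter through liver, so no p is given. In the rat, where rodents carry several copies, Serpina3k stood at 2416 and 5884 FPKM in female and male liver, Serpina3n at 446 and 1758, and Serpina3m at 238 and 753. None exceeded 3.69 FPKM elsewhere. The split among the 3 is uncertain, because the assignment of reads that fit several copies is not stated in the labels.

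Among the inhibitors of clotting, rat Serpinc1, antithrombin, stood at 1944 FPKM in female and 3760 FPKM in male liver, then 24.6 and 79.9 FPKM in kidney, with at most 1.96 FPKM in heart, brain and gonads. Its liver difference was 8.99 ± 0.54 (limma adjusted p = 2.71e-05). Rat Serpind1, heparin cofactor II, an inhibitor of thrombin, stood at 680 and 591 FPKM in female and male liver and at no more than 0.491 FPKM elsewhere. SERPINA10 inhibits activated factor X together with protein Z, and stood at 127 and 182 FPKM in female and male marmoset liver and at 125 and 165 FPKM in rat liver. In kidney Serpina10 reached 5.76 FPKM in the female rat and 0.638 in the male, and marmoset SERPINA10 was at 0 and 0.101 FPKM.

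SERPINF2, alpha-2-antiplasmin, is the main inhibitor of plasmin. In the marmoset it stood at 1045 FPKM in female and 2944 FPKM in male liver, 38.4 and 110 in kidney, 2.70 and 7.61 in heart, 4.34 and 5.64 in brain, 4.68 in ovary and 2.12 in testis. In the rat the livers were at 580 and 816 FPKM, the kidneys at 67.1 and 131, and no other column passed 0.938. The liver difference was 7.07 ± 0.61 in the marmoset (limma adjusted p = 4.80e-04) and 6.85 ± 0.32 in the rat (limma adjusted p = 7.53e-06). Both species thus had kidney in the next place after liver.

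SERPINF1, pigment epithelium-derived factor, is a secreted member that does not inhibit proteases. It was also found outside the liver. In the marmoset it stood at 1882 and 1672 FPKM in female and male liver, 253 in testis, 134 in ovary, 86.2 and 204 in heart, 45.0 and 83.7 in kidney, and 4.12 and 6.27 in brain. Rat Serpinf1 stood at 1159 and 2044 FPKM in liver, 57.3 and 136 in kidney, 42.0 and 45.8 in heart, 5.74 and 8.87 in brain, 14.2 in ovary and 7.14 in testis. The liver differences were 5.58 ± 0.44 (limma adjusted p = 3.91e-04) and 5.59 ± 0.41 (limma adjusted p = 6.37e-05).

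Serping1, the C1 inhibitor, restrains the complement proteases C1r and C1s and plasma kallikrein. In the rat it stood at 731 FPKM in female and 2146 FPKM in male liver, 46.2 and 116 in heart, 37.5 and 119 in kidney, 5.95 and 7.98 in brain, 27.5 in ovary and 9.83 in testis. Every tissue with both sexes had the male library above the female one. The liver difference was 5.20 ± 0.61 (limma adjusted p = 4.95e-04), and kidney and heart shared its next highest values.

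The hormone carriers are serpins that bind steroid or thyroid hormone in plasma. Rat Serpina6, corticosteroid-binding globulin, stood at 1708 FPKM in female and 990 FPKM in male liver and at no more than 0.916 FPKM elsewhere. Rat Serpina7, thyroxine-binding globulin, stood at 37.4 and 47.6 FPKM in liver, and its highest value in another column was 0.0565 FPKM. Of the remaining plasma members, Serpina4, kallistatin, an inhibitor of tissue kallikrein, stood at 910 and 2139 FPKM in female and male rat liver. Marmoset SERPINA4 was at 27.1 and 47.9 FPKM in liver and listed at 0 in all other somatic libraries, so no fold is given. SERPINA11 stood at 126 and 524 FPKM in marmoset liver and Serpina11 at 202 and 624 FPKM in rat liver, with at most 0.483 FPKM in any other column of either species.

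Outside the liver, most liver-high serpins stood higher in the male than in the female library, by values alone. Of the 16 rat members, 14 did so in heart, 13 in kidney and 13 in brain, where 49.4%, 57.1% and 47.6% of all entries above 0 in a library did. The corresponding marmoset counts were 6, 5 and 6 of 7, against 62.8%, 59.7% and 62.7% of entries. Their sums were 100 FPKM in the female and 197 in the male rat heart, where the hepatocyte list, all 6 genes found, summed to 78.9 and 175 FPKM. Of the serpin sums there, Serping1 made 46.2 and 116 FPKM and Serpinf1 42.0 and 45.8. In marmoset heart the serpin sums were 89.0 and 214 FPKM, of which SERPINF1 alone made 86.2 and 204. The 5 hepatocyte genes found summed to 16.9 and 213 FPKM in marmoset heart, with ALB alone at 1.90 and 155 FPKM. In rat kidney the serpins summed to 199 FPKM in the female and 480 in the male, far above the hepatocyte list at 16.2 and 28.2. The largest parts were Serpinf2 at 67.1 and 131 FPKM and Serpinf1 at 57.3 and 136. Rat brain had the markers in the opposite order, with a hepatocyte sum of 618 FPKM in the female, of which Ttr made 403, and 83.2 in the male, beside serpin sums of 21.2 and 33.6. The list was split there: Apoa1, Apoh and Fgb were called lower in rat brain, where 25.7% of all genes were, and Ttr, Tf and Alb were not called. The serpin sums were not scaled by the column totals, which differed between the sexes as well. All entries summed to 678451 and 1212678 FPKM in female and male rat kidney, and to 427621 and 837796 in marmoset heart. In rat heart the totals were 3292147 and 3551202 FPKM, and in rat brain 774373 and 578394. The part of liver RNA in the low serpin values outside the liver was not tested.

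In kidney serpins were called in both directions, and no marmoset member was called higher in kidney alone. In marmoset kidney 2 serpins of 12 tested were higher and 4 lower, against 10.1% and 7.87% of all genes, and in rat kidney 4 of 23 were higher and 11 lower, against 11% and 10.6%. All 4 lower marmoset members and 9 of the 11 lower rat members were liver-high serpins. Both higher marmoset members, SERPINB1 and SERPINH1, were also called higher in heart, and neither had both kidney libraries above all others. Against heart and brain alone, a contrast added after seeing the data, 3 marmoset serpins were higher and 0 lower, and 7 rat serpins were higher and 2 lower. Of all genes 13.7% and 14.1% were higher in that contrast and 11.1% and 14.4% lower. Without either liver library, 1 of the 4 lower marmoset calls and 5 of the 11 lower rat calls remained, as the others were no longer tested. In bulk tissue, fewer cells of a type and less RNA per cell cannot be told apart.

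The plasmin inhibitor was the largest of these. Against heart and brain, the kidney difference was 5.99 for rat Serpinf2 (limma adjusted p = 2.61e-05) and 3.51 for marmoset SERPINF2 (limma adjusted p = 0.00808). Serpinc1, Serpinf1 and Serpina10 also passed in the rat kidney by this contrast, at 4.64, 2.22 and 1.66. For Serpina10 this rests largely on the female kidney, at 5.76 FPKM against 0.638 in the male. Against the mean of all 3 tissues Serpinf2 remained higher in rat kidney by 3.04 ± 0.32 (limma adjusted p = 4.79e-04), whereas Serpinc1, at 1.13 ± 0.54, did not pass (limma adjusted p = 0.174). With a term for the animal, the replicate block, Serpinc1 passed (limma adjusted p = 0.00867). Plau, the urokinase that activates plasminogen, stood at 292 and 171 FPKM in female and male rat kidney and at no more than 2.39 FPKM in heart, brain and liver.

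Of the 15 rat clade B members, 5 were tested. In kidney 3 were higher, Serpinb1a, Serpinb8 and Serpinb12, where 11% of all genes were, while Serpinb6 and Serpinb9 were not called. The 3 passed the filter through kidney, so their count describes the clade and supports nothing further. Rat Serpinb1a, a relative of the leukocyte elastase inhibitor, stood at 15.2 FPKM in female and 7.19 FPKM in male kidney, 3.19 in ovary and at most 1.09 elsewhere. The kidney difference was 2.79 on the log2 scale. Among the other somatic libraries Serpinb1a reached 1 FPKM in female brain alone. It passed the filter through kidney, so no p is given for it. Rat Serpinb8, an inhibitor of furin, stood at 3.87 and 1.69 FPKM in kidney against at most 0.758 elsewhere, and Serpinb12 at 1.85 and 1.09 FPKM in kidney and listed at 0 in every other column. Serpinb8 and Serpinb12 reach 1 FPKM in kidney alone and left the test without either rat kidney library, when 2 calls remained.

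Marmoset SERPINB1, the leukocyte elastase inhibitor, stood at 45.1 and 37.0 FPKM in female and male kidney, 28.2 and 38.6 in heart, 10.0 and 16.7 in liver, 3.96 and 3.85 in brain, 13.9 in ovary and 5.12 in testis. Kidney and heart overlapped. The kidney difference was 1.66 ± 0.28 (limma adjusted p = 0.00724) and the heart difference 1.26 ± 0.28 (limma adjusted p = 0.0168). Neither SERPINB1 nor SERPINH1 passed in kidney without the female or without the male kidney library, which left 0 of the 2 calls. SERPINH1 was lost there without either brain column too, and SERPINB1 in heart without the male heart library or either brain column. The leukocyte genes found, PTPRC and CD3E, were both higher in marmoset kidney, with a sum of 23.6 and 18.4 FPKM against between 0.565 and 9.68 in the other somatic libraries, and their part in the SERPINB1 level was not tested.

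In heart, 3 marmoset serpins of 12 tested were higher and 5 lower, against 10.2% and 13.8% of all genes. In rat heart 2 of 23 were higher and 14 lower, against 15.8% and 16.5%. All 5 lower marmoset members and 13 of the 14 lower rat members were liver-high serpins. Against kidney and brain alone, 4 marmoset serpins were higher and 0 lower, and 2 rat serpins were higher and 4 lower. Of all genes 10.7% and 17.2% were higher in that contrast and 14.2% and 16.6% lower. Without the female liver library 2 of the 5 lower marmoset calls and 8 of the 14 lower rat calls remained, and without the male one 2 and 7.

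SERPINH1, also called HSP47, binds procollagen in the endoplasmic reticulum and was higher in the heart of both species. In the marmoset it stood at 93.7 FPKM in female and 86.1 FPKM in male heart, 58.2 and 76.0 in kidney, 20.6 and 7.52 in liver, 5.06 and 4.19 in brain, 225 in ovary and 43.7 in testis. In the rat it stood at 89.1 and 122 FPKM in heart, 32.6 and 40.1 in kidney, 33.2 and 30.7 in liver, 11.2 and 12.0 in brain, 170 in ovary and 6.68 in testis. The heart difference was 2.40 ± 0.38 in the marmoset (limma adjusted p = 0.00525) and 2.08 ± 0.23 in the rat (limma adjusted p = 4.58e-04). Both heart libraries lay above the other somatic libraries in each species. With the brain columns left out, the difference of SERPINH1 in marmoset heart was 1.59 and did not pass (limma adjusted p = 0.0669).

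The collagens that SERPINH1 serves were measured beside it. Of 5 collagen genes, 4 were higher in marmoset heart and 5 in rat heart, against 10.2% and 15.8% of all genes. All 5 were lower in brain in both species, against 21.4% and 25.7%. SERPINH1 was lower in brain too, at -2.96 ± 0.38 in the marmoset (limma adjusted p = 0.00142) and -2.01 ± 0.23 in the rat (limma adjusted p = 3.35e-04). Liver differed: 0 collagens were called in the marmoset, where SERPINH1 was lower. In rat liver, where Serpinh1 was not called, 1 was higher and 2 lower, against 18% and 18.6% of all genes. Kidney had 2 collagens higher in the marmoset, as SERPINH1 was, and 1 lower in the rat, against 10.1% and 10.6%. The 5 collagens summed to 605 FPKM in marmoset ovary and 476 FPKM in rat ovary, above the 133 to 163 and 231 to 303 FPKM of the hearts. Fibroblast and smooth muscle genes summed to 1511 FPKM in marmoset ovary and to 1213 and 1263 in female and male heart, and in the rat to 407 FPKM in ovary and 421 and 911 in female and male heart. Their part in the SERPINH1 levels was not tested.

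Rat Serpinb6, an intracellular inhibitor of cathepsin G, was the other heart-high member. It stood at 58.6 FPKM in female and 50.3 FPKM in male heart, 26.5 and 22.5 in kidney, 8.62 and 7.36 in brain, 7.51 and 6.06 in liver, 30.2 in ovary and 14.3 in testis. Males and females lay close together in each tissue. The heart difference was 2.19 ± 0.21 (limma adjusted p = 2.40e-04).

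In brain more serpins were called lower than higher. In the marmoset 1 serpin of 12 tested was higher and 10 lower, against 15.7% and 21.4% of all genes, and in the rat 2 of 23 were higher and 16 lower, against 17.3% and 25.7%. Of the lower members 6 in the marmoset and 14 in the rat were liver-high serpins. Against heart and kidney alone, 1 marmoset and 2 rat serpins were higher and 5 and 7 lower, where 14.1% and 16.2% of all genes were higher and 17.5% and 22.6% lower. Without the female marmoset brain column 6 of the lower calls remained, and SERPINB9, SERPINF2 and SERPINA11 were among those that did not pass. Without either rat liver library 10 of the 16 lower calls remained, as the others left the test. Of the higher calls, Serpini1 left the test without either rat brain column, because it reaches 1 FPKM in brain alone.

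Serpini1, neuroserpin, inhibits tissue plasminogen activator and is released by neurons. In the rat it stood at 63.9 FPKM in female and 47.7 FPKM in male brain and at no more than 0.550 FPKM elsewhere. The brain columns differed from the other tissues by 5.53 on the log2 scale, and no p is given because the gene entered the test through brain alone. Plat, the gene of that activator, stood at 12.8 and 11.2 FPKM in female and male rat brain, below heart (25.9 and 36.4) and kidney (35.5 and 46.4).

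SERPINE2, protease nexin-1, inhibits thrombin and plasminogen activators at cell surfaces. In the marmoset it stood at 60.2 FPKM in female and 109 FPKM in male brain, 22.0 and 34.9 in kidney, 16.8 and 30 in heart, and 1.12 and 1.28 in liver. The rat brains were at 48.3 and 27.7 FPKM, the hearts at 19.5 and 21.0, the livers at 10.8 and 6.97 and the kidneys at 3.24 and 3.49. Brain was higher in both species, by 2.85 ± 0.36 in the marmoset (limma adjusted p = 0.00136) and 1.96 ± 0.28 in the rat (limma adjusted p = 9.04e-04). The order of the remaining tissues differed: marmoset liver was lowest, at -4.12 ± 0.36 (limma adjusted p = 5.38e-04), and rat kidney was lowest, at -2.18 ± 0.28 (limma adjusted p = 0.00107). Between the rat brain columns the sexes also differed in cerebellar markers, and the part of brain region in the Serpine2 values was not tested.

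SERPINB9, an inhibitor of granzyme B that protects cytotoxic cells, was broad. The rat gene stood at 22.3 FPKM in female and 12.1 FPKM in male liver, 26.7 in ovary, between 4.52 and 9.65 in brain, heart and kidney, and 1.12 in testis. The difference of Serpinb9 in rat liver, 1.18 ± 0.31 (limma adjusted p = 0.0169), was 0.76 without the female liver library and 0.90 after quantile normalization, both short of a call. Marmoset SERPINB9 ranged from 1.08 to 7.97 FPKM over all columns.

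The gonads have 1 column each, so their values carry no error and no test. Members were counted when a gonad differed from every somatic library by 2 log2 units or more, in the same direction. In rat testis 2 of 26 serpins were above, Serpina5 and Serpinb11, where 12% of all entries were, and 0 were below, where 0.866% were. In marmoset testis 0 of 12 were above or below, against 3.73% and 0.458% of entries. In ovary the counts were 0 above and 0 below in both species. Of all entries in marmoset ovary 0.602% were above and 0.0807% below, and in rat ovary 0.635% and 0.0254%.

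SERPINA5, the protein C inhibitor, acts on activated protein C in blood and on acrosin and other proteases in the male tract. Its levels lay far apart between the species. In the marmoset it stood at 716 FPKM in female and 883 FPKM in male liver, 345 in testis, and at most 1.27 in the other columns. In the rat it stood at 53.9 FPKM in testis, 2.08 and 2.61 in female and male liver, 2.35 in ovary and at most 0.120 in heart, kidney and brain. Rat testis thus lay 3.93 log2 units above the highest somatic library, whereas the difference of marmoset testis from the male liver was -1.35. Marmoset liver was above kidney, heart and brain by 9.05 on the log2 scale. Among the other somatic libraries marmoset SERPINA5 reached 1 FPKM in male heart alone, and rat Serpina5 in none. Both genes passed the filter through liver, so no p is given for them. Of 4 listed epididymal genes, markers of tissue that can come with a testis, 2 were found in the marmoset and 1 in the rat. The 2 summed to 0.780 FPKM in marmoset testis, and Crisp1 was at 0.106 FPKM in rat testis. The part of epididymis in the SERPINA5 levels was not tested.

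Serpinb11 stood at 13.0 FPKM in rat testis and at no more than 0.0428 FPKM in any other column, 3.74 log2 units above the highest somatic library. Serpinb6b, a relative of Serpinb6, peaked in rat testis as well, at 6.79 FPKM against 1.43 in ovary and at most 1.15 in somatic libraries, a difference of 1.85 that missed the threshold. Its paralog Serpinb6 stood at 14.3 FPKM in the same testis, below heart and kidney. The germ cell list summed to 6035 FPKM in rat testis, and in the marmoset only DDX4 of that list was found, at 29.8 FPKM.

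Ovary held the highest value of 3 members in both species, SERPINE2, SERPINH1 and, by a small margin, SERPINB9. SERPINE2 stood at 367 FPKM in marmoset ovary against 109 in the highest somatic library, male brain, and Serpine2 at 155 FPKM in rat ovary against 48.3 in female brain. These are differences of 1.75 and 1.66 log2 units. SERPINH1, at 225 FPKM, lay 1.26 above the highest marmoset heart, and Serpinh1, at 170 FPKM, lay 0.48 above the highest rat heart. SERPINB9 in ovary lay 0.15 above the highest somatic library in the marmoset and Serpinb9 lay 0.25 above it in the rat. With a threshold of 1 in place of 2, ovary counted 2 members above in the marmoset and 1 in the rat. Testis was low for Serpine2 in the rat, at 0.344 FPKM, below every somatic library.

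**Figure D3:**
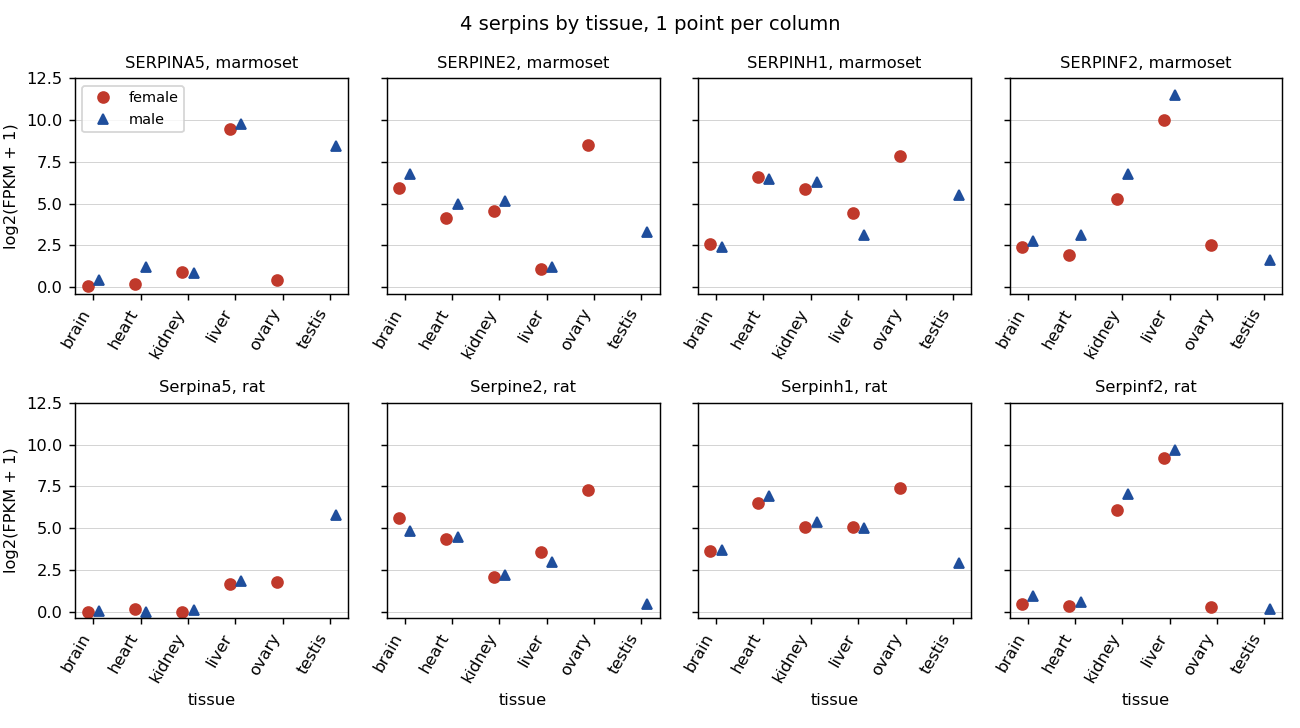
SERPINA5, SERPINE2, SERPINH1 and SERPINF2 by tissue in the marmoset (top) and the rat (bottom), 1 point per column of the tables, circles female and triangles male, on log2(FPKM + 1). SERPINA5 is high in marmoset liver and testis and mainly in testis in the rat, SERPINE2 and SERPINH1 peak in ovary, and SERPINF2 is high in liver with kidney next.

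Male and female liver were compared by values alone, since each sex has 1 library, so that sex and animal cannot be told apart. A difference was counted from 1 log2 unit with at least 5 FPKM in the higher library. In the rat 6 of 18 serpins were higher in the male and 0 in the female, against 14.9% and 4.06% of entries. In the marmoset 3 of 10 were higher in the male and 2 in the female, against 29% and 6.46% of entries.

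The 6 rat members were Serpina3n at 1.98 log2 units, Serpina3m at 1.66, Serpina11 at 1.62, Serping1 at 1.55, Serpina3k at 1.28 and Serpina4 at 1.23. Of the 18, 12 were above 0 and 6 below, among them Serpinb9 at -0.83 and Serpina6 at -0.79, where 64.7% of all such entries were above 0. In the marmoset SERPINA3 was higher in the male by 3.70, SERPINA11 by 2.05 and SERPINF2 by 1.49, and SERPINH1 was at -1.34. SERPINA3 and SERPINA11 thus pointed to the male library in both species, with Serpina3k, Serpina3m and Serpina3n as the rat copies.

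Abundant liver genes were higher in the male libraries generally. Entries with a mean of at least 100 FPKM in liver had a median male minus female difference of 0.97 in the marmoset and 0.59 in the rat, and the counted serpins medians of 0.60 and 0.66. After quantile normalization, chosen after seeing the data, the medians were 0.12 and 0.00 for abundant entries and -0.04 and -0.07 for the serpins, and 3 rat serpins stayed at least 1 higher in the male while 2 were higher in the female. The 3 were Serpina3n at 1.18, Serpina3m at 1.09 and Serpina11 at 1.02, and the 2 were Serpina6 at -1.59 and Serpinb9 at -1.06. In the marmoset 2 were higher in the male, SERPINA3 at 2.76 and SERPINA11 at 1.19, and 3 in the female.

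**Figure D4:**
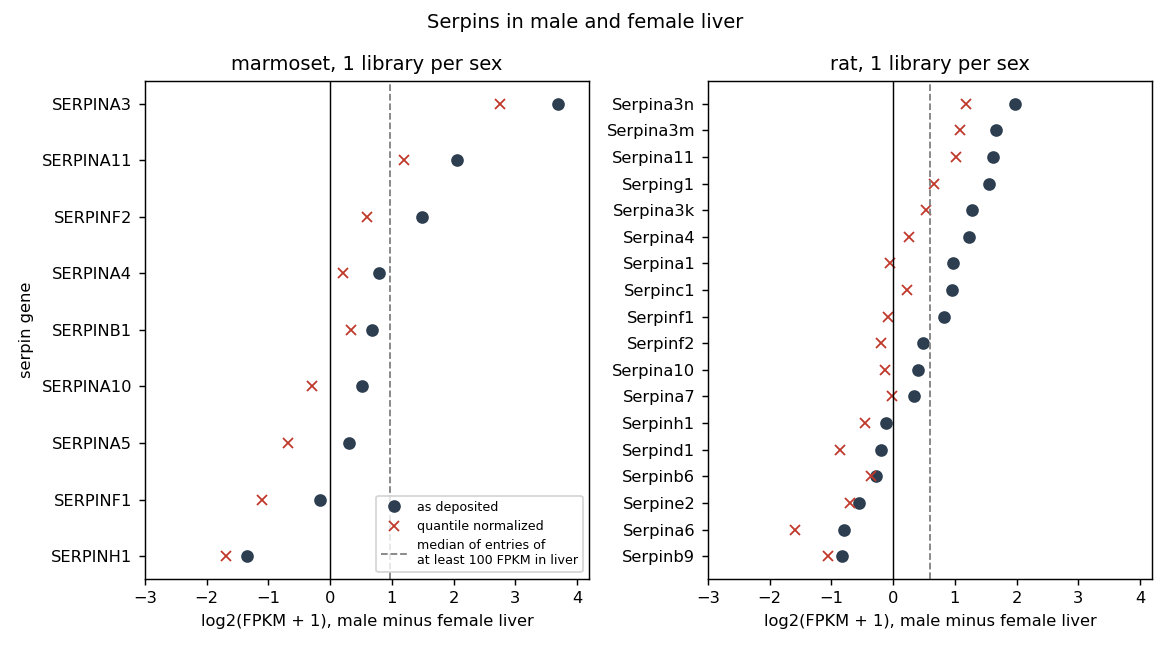
Male minus female liver on log2(FPKM + 1) for serpins with at least 5 FPKM in 1 of the livers, except 1 marmoset serpin that is not reported, 1 library per sex; circles are the deposited values, crosses the same after quantile normalization, and the dashed line the median of entries of at least 100 FPKM in liver. The line stands at 0.97 in the marmoset and 0.59 in the rat, and SERPINA3 (3.70) and Serpina3n (1.98) lie farthest to the right.

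In the wallaby, 10 of 12 serpins with at least 5 FPKM were higher in liver by 2 log2 units or more and SERPINB6 was higher in testis, where 36.2% of entries were higher in liver and 16% in testis. The median difference of liver from testis was 7.90 over these serpins and 1.22 over all such entries. SERPINA1 stood at 18019 FPKM in liver, rank 7 of 13892 entries, against 3.33 FPKM in testis. It was followed in liver by SERPINA3 at 6129 FPKM, SERPINC1 at 3243, SERPINA11 at 1271, SERPINF1 at 540, SERPINF2 at 443, SERPIND1 at 378, SERPINA6 at 272 and SERPINA10 at 256. In testis none of these 9 exceeded 3.65 FPKM.

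SERPINH1 was also higher in wallaby liver, at 36.8 FPKM against 1.62 in testis, where the 5 collagens summed to 67.2 and 3.88 FPKM. SERPINB6 stood at 65.7 FPKM in testis and 9.01 FPKM in liver. SERPINE2, at 43.4 FPKM in testis and 14.0 FPKM in liver, had a liver minus testis difference of -1.57 and was not counted. Rat Serpine2 had the opposite order, with 0.344 FPKM in testis and 6.97 FPKM in male liver.

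The 3 tables were normalized separately, so levels across species are set side by side without a test. SERPINF2 in liver stood at 1045 and 2944 FPKM in female and male marmoset, 580 and 816 in the rat and 443 in the wallaby, and SERPINA10 between 125 and 256 FPKM in all 5 livers. SERPINA11 ranged from 126 FPKM in the female marmoset to 1271 in the wallaby. SERPINA4 and SERPINA5 lay far apart between the marmoset and the rat: 27.1 and 47.9 against 910 and 2139 FPKM for SERPINA4, and 716 and 883 against 2.08 and 2.61 FPKM for SERPINA5.

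**Figure D5:**
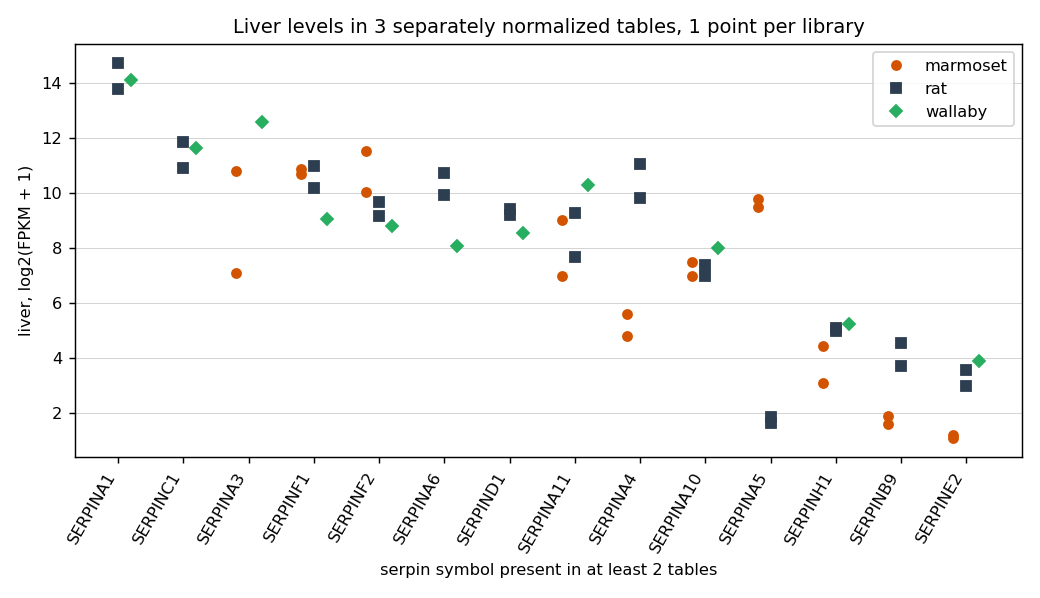
Liver level of serpin symbols found in at least 2 of the 3 tables with at least 10 FPKM in a liver, on log2(FPKM + 1), 1 point per liver library (marmoset and rat female and male, wallaby male). The tables were normalized separately. SERPINA10 points lie close together, and SERPINA5 is the symbol with the widest gap between marmoset and rat.

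Many of the plasma proteases that serpins restrain were higher in liver, and the plasminogen activators were lower. Of 12 clotting and fibrinolysis genes, 9 were higher and 2 lower in marmoset liver, and of the 11 tested in the rat 9 were higher and 2 lower, where 14.7% and 18% of all genes were higher and 14.3% and 18.6% lower. The 9 were the same symbols in both species, F2, F7, F9, F10, F11, F12, PLG, KLKB1 and PROC, and the 2 lower were the plasminogen activators PLAT and PLAU. F2, prothrombin, the target of antithrombin, stood at 1146 FPKM in female and 2456 FPKM in male rat liver, and PLG, plasminogen, at 1295 and 1881 FPKM. All 4 complement C1 and lectin pathway proteases were higher in liver in both species. Of the 6 leukocyte granule proteases, which SERPINA1, SERPINA3 and clade B members inhibit, 5 were found in the marmoset and 4 in the rat, and 1 in each species was tested and not called in liver. The genes found summed to at most 5.48 FPKM in any marmoset column and 2.96 FPKM in any rat column.

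Inhibitors outside the family were counted as well. Of 13 listed genes, 10 were tested in the marmoset and 12 in the rat, and 7 and 8 of them were higher in liver, against 14.7% and 18% of all genes. In kidney 4 were higher and 4 lower in the marmoset, against 10.1% and 7.87% of all genes, and 2 were higher and 7 lower in the rat, against 11% and 10.6%. In the rat, Spint1 and Spint2, inhibitors of membrane proteases in epithelia, were higher in kidney, with Spint2 at 218 FPKM in female and 888 FPKM in male kidney. In the marmoset the higher genes were TFPI2, SPINT2, SLPI and KNG1.

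A further 12 marmoset entries carry no symbol in the table and are serpins by the Ensembl name table, which lies outside the rule and was consulted after values were seen. Of these, 5 were higher in liver, where 14.7% of all genes were, 2 were tested and not called, and 5 were not tested. SERPINA6, at 2.53 and 8.03 FPKM in female and male liver and at most 0.504 elsewhere, passed the filter through liver alone. Its call therefore supports nothing further. SERPINC1 stood at 3793 FPKM in female and 6896 FPKM in male liver with 42.3 and 117 FPKM in kidney, and SERPING1 at 2251 and 5053 FPKM in liver. SERPINA1 was at 13492 FPKM in female liver and listed at 0 in male liver, with 266 and 367 FPKM in female and male kidney. The 0 stands in the same column in which FGB, fibrinogen beta, was listed at 0 against 7193 FPKM in the female. SERPINI1 was broader than in the rat, at 97.4 and 90.7 FPKM in female and male brain, 96.5 and 28.6 in liver, and between 2.56 and 25.7 in the remaining columns. With these entries the marmoset sums in liver were 25030 FPKM in the female and 20903 FPKM in the male.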

How the data were processed

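The values are FPKM in 1 table per species, made and normalized across tissues by the authors. TopHat 1.4.0 and Cufflinks 2.0.0 are named per the submitters' processing notes. Not given in the sources used here are the builds, the annotation, the normalization method and the handling of reads that fit several copies. No coordinates are printed for that reason. Per the labels' protocols, marmoset libraries were strand-specific and the testis samples of the second marmoset were sequenced on another instrument than the rest. Of the wallaby's columns, 8 of per-sample values held only 0 and were not used.

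Columns were matched to samples by tissue and sex. In R 4.3.3, limma 3.58.1 with its trend option was fitted to log2(FPKM + 1) of brain, heart, kidney and liver, 2 libraries each, over genes that reached 1 FPKM in 2 or more libraries. P-values were adjusted over all genes tested in a species, and the procedure was tested on simulated data. A difference on this scale understates the change of low genes. Gonads, liver sexes and the wallaby have 1 column a group and no test. Sequencing depth cannot be read from FPKM, so no counting interval is given. The same animal gave all tissues of 1 sex by the labels, and male minus female differences correlated across genes between tissues by 0.54 to 0.72 in the marmoset and 0.14 to 0.51 in the rat, so the sexes pair the libraries.

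Serpins that reached 10 FPKM are described in full and the others by counts. The values of 1 member, which enters the counts, are not reported here. The members, the gene lists and the rule for naming genes were chosen with earlier results of these data known. Alternatives were another pseudocount, no filter, no trend, quantile normalization, 0 as missing, the animal as a block, brain left out and each library left out.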

Additional observations from a re-analysis of the deposited data

How the results depend on the processing

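Of 1403 recomputed differences of single serpins from the other tissues, 1346 kept their direction and call, 57 kept the direction and lost the call, and 0 reversed. Cases in which a called serpin was no longer tested, or had no estimate, are not among the 1403. Quantile normalization moved the median of all genes by -0.20 (liver), -0.13 (kidney), 0.13 (heart) and 0.22 (brain) in the marmoset, and by -0.11 (liver) and 0.10 (brain) in the rat, and lost 4 calls, Serpinb1a and Serpinb9 in rat liver and Serpina1 and Serpinf1 in rat heart. With the replicate block, marmoset counts higher and lower were 7 and 3 in liver, 3 and 5 in kidney, 3 and 6 in heart, 1 and 11 in brain, and rat counts 16 and 3, 5 and 11, 2 and 14, 2 and 16. The block added SERPINA3, which passed the filter through liver, as lower in marmoset kidney, heart and brain, and ended no call. Leaving out 1 library at a time gave marmoset counts of 4 to 7 higher and 1 to 3 lower in liver, 0 to 3 and 2 to 4 in kidney, 2 to 3 and 3 to 5 in heart, 1 to 1 and 6 to 10 in brain, and rat counts of 8 to 16 and 2 to 3, 2 to 4 and 5 to 12, 2 to 2 and 7 to 15, 1 to 2 and 10 to 16. Most of the loss without a liver library is construction, as genes above 1 FPKM in liver alone leave the test. With brain left out, marmoset kidney and heart each had 1 higher and liver 4 lower. Without the filter marmoset liver had 1 lower, and with 0 as missing marmoset heart had 3 lower; the cause was not tested. Without liver in the contrast, lower counts fell to 0 in marmoset kidney, 0 in heart and 5 in brain and to 2, 4 and 7 in the rat, and rat kidney had 7 higher. At a threshold of 1, ovary counted 2 in the marmoset and 1 in the rat. Depth, unknown here, limits what a value near 0 can show.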
